A study of Mus musculus with 6 samples.

Results

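The 10 genes described here encode the cyclins, kinases and checkpoint proteins that drive a cell into and through mitosis: Ccna2, Ccnb1, Ccnb2 and Cdk1, the kinases Plk1, Aurka and Aurkb, and Bub1b, Ttk and Cdc20 of the spindle checkpoint. They were chosen by gene symbol, and all 10 were found among the 56636 genes of the deposited table. RNA of RAW264.7 cells, a mouse macrophage-like line labelled as mononuclear macrophage and of wild-type genotype, was sequenced in 6 libraries. In 3 libraries the cells had been given 25-HC for 24 h, and in 3 they had been given vehicle for the same time. All were grown in medium with fetal bovine serum and antibiotics, and the labels give neither the dose of 25-HC nor its full name. The line is the only model in the series, and whether each library is a culture of its own is not on the labels, so p-values measure the spread between libraries, which may be technical. The series belongs to a study of a microRNA that cancer cells secrete and of cholesterol balance, and the comparison asks what 25-HC changes in these cells.

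A dividing cell accumulates cyclins A and B, which bind the kinase CDK1 and switch it on, and CDK1 with the Polo and Aurora kinases then builds the spindle. Until every chromosome is attached, the kinase TTK, the kinase-like protein BUBR1 and their partners hold back CDC20, the activator of the anaphase-promoting complex. When that block lifts, the complex destroys the B cyclins and the cell divides. The mRNAs of these genes are made late in the cell cycle, through CCAAT boxes bound by NF-Y and through the cell cycle genes homology region (CHR), a short element bound by the MuvB complex, so their level in a culture is widely read as a sign of proliferation. In bulk RNA a smaller share of mitotic cells and less of each mRNA per cell cannot be told apart.

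Promoter windows of 300 bases, from 250 bases before to 50 bases after the annotated gene start, were held for 8 of the 10 genes in the RefSeq table on build GRCm38.p6. Letters in capitals mark a CHR (TTTGAA) or a CCAAT box (CCAAT), searched on both strands, so that the reverse complements TTCAAA and ATTGG are also in capitals. The 5 windows shown belong to Cdc20, with both motifs close to the start, to Cdk1, the gene with the highest level, to Plk1, which varied most among the vehicle libraries, to Ccnb1, which varied least, and to Ttk, whose groups did not overlap.
Cdc20 (chr4:118437294-118437593, minus strand): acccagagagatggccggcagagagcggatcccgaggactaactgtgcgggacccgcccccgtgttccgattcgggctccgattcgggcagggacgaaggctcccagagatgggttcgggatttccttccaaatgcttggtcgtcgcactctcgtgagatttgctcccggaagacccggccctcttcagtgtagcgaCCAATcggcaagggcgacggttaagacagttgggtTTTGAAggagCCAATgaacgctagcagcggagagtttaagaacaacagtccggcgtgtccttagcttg
Cdk1 (chr10:69352863-69353162, minus strand): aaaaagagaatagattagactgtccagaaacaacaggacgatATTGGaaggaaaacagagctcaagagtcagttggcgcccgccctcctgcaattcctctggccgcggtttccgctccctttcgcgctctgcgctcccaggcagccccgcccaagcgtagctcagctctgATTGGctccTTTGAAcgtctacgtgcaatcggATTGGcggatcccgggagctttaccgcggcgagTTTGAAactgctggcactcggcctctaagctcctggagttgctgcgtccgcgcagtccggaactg
Plk1 (chr7:122159185-122159484, plus strand): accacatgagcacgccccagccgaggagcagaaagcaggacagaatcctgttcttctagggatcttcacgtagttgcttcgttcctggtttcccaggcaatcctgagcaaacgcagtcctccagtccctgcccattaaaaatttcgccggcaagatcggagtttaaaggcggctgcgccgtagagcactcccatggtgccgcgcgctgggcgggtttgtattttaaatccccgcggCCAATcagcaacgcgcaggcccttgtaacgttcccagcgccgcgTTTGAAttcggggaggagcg
Ccnb1 (chr13:100786437-100786736, minus strand): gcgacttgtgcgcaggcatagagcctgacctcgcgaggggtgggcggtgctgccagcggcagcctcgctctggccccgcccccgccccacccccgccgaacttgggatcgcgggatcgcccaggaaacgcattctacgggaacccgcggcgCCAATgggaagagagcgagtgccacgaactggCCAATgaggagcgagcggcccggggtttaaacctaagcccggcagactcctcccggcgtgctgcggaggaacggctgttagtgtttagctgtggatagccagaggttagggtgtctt
Ttk (chr9:83834439-83834738, plus strand): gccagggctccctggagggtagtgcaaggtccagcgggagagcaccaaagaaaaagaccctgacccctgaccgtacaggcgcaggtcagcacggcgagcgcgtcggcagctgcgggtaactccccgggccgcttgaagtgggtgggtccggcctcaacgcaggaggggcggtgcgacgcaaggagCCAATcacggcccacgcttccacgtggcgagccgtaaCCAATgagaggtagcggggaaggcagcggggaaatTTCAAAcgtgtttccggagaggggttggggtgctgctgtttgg

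TTTGAA, the only form of the CHR searched, was found in 7 of the 8 windows, all but that of Ccnb1, and a CCAAT box in 8 of 8. Whether the window of Ccnb1 holds a CHR of another form was not tested. Of 32851 windows in the whole table, 17.9% held TTTGAA, 37.4% held CCAAT and 6.95% held both. The motifs did not overlap each other in these windows. In Cdc20 the CHR began 18 bases before the gene start, between CCAAT boxes that began 53 and 8 bases before it. Cdk1 carried 2 CHR matches, which began 71 and 15 bases before the start, and 3 CCAAT boxes on the reverse strand. Plk1 had its CCAAT box 14 bases before the start and its CHR 30 bases after it. Ttk, alone among the 8, had its CHR on the reverse strand, where it began 7 bases after the start. A match in letters is no measurement of binding.

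**Figure D1:**
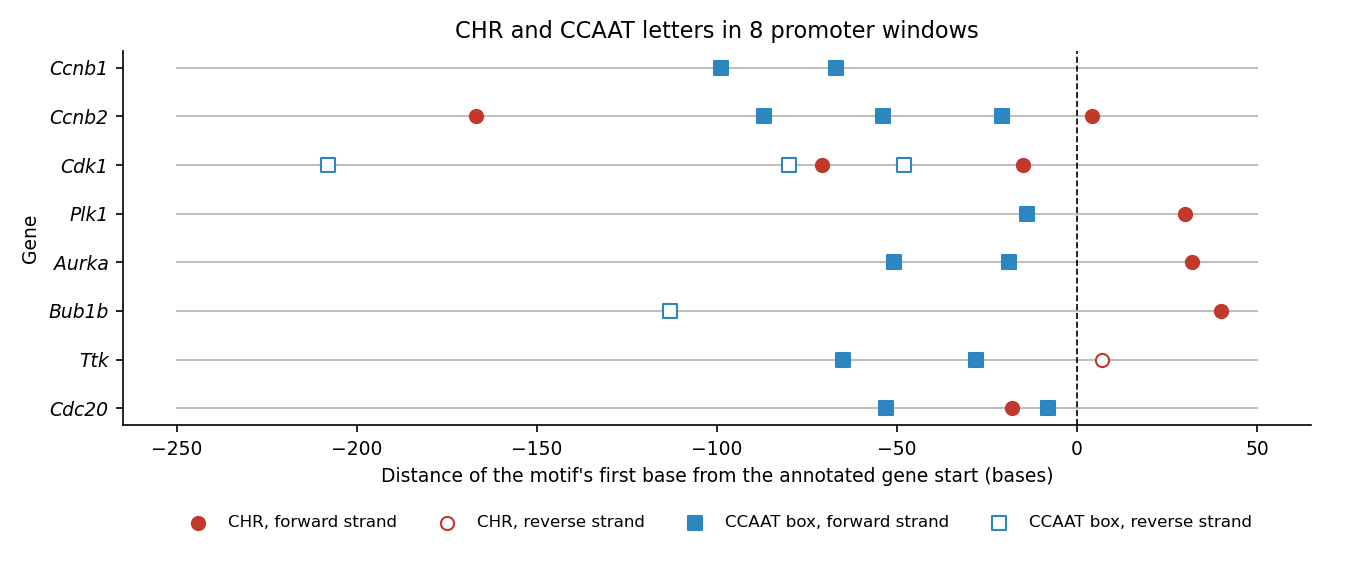
Position of each CHR (circles) and CCAAT box (squares) in 8 promoter windows, as distance in bases of the motif's first base from the annotated gene start; filled symbols are on the strand of the gene and open symbols on the other strand. The window of Ccnb1 has CCAAT boxes but no TTTGAA on either strand, the only form of the CHR searched. Those of Plk1, Aurka, Bub1b and Ttk have their only CHR match after the start.

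The deposited values are TPM, which scale each gene for transcript length and each library to the same total. Levels of different genes can therefore be compared, within the limit of the length differences between libraries given below, but sequencing depth is unknown. The 3 libraries with 25-HC resembled one another, with 11971 to 12005 genes at 1 TPM or more and 22.8% to 23.1% of the TPM in ribosomal protein genes. Vehicle 1, 2 and 3 had 11238, 9492 and 11994 such genes, and 26.8%, 37.4% and 20.96% of their TPM in ribosomal protein genes, so vehicle 2 stood apart, vehicle 1 stood apart less, and vehicle 3 lay near the libraries with 25-HC. Macrophage markers were present, with 9 of 10 listed genes tested and a summed level of 2537 to 2558 TPM with 25-HC and 1735 to 2595 TPM with vehicle, and Mertk was listed at 0 throughout. The sum hides uneven genes, such as Itgam, at 0.53 TPM in vehicle 2 and 50.95 TPM in vehicle 3. Of the 9, 5 lay above every vehicle library and 1 (Cd68) below, beside 22.6% and 8.1% of all tested genes, and none passed limma. Lymphocyte, neutrophil, fibroblast and epithelial markers, 17 genes in all and none of them tested, reached sums of no more than 0.37, 2.5, 0.47 and 0.23 TPM, with the fibroblast marker Pdgfra listed at 0 in all libraries.

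With 25-HC the mitotic genes took a total of 1012, 1008 and 1015 TPM, against 860, 210 and 1222 TPM in vehicle 1, 2 and 3. Every one of the 10 genes had a higher mean with 25-HC, yet for 9 of them the groups overlapped, because the libraries with 25-HC lay between vehicle 2 and vehicle 3. All 10 followed the order vehicle 2, then vehicle 1, then vehicle 3, as did 67.1% of all 12092 tested genes. The coefficient of variation was 1.04% to 6.5% among libraries with 25-HC, with a median of 2.28% over the genes, and 36.7% to 88.8% among vehicle libraries, with a median of 64.6%.

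**Figure D2:**
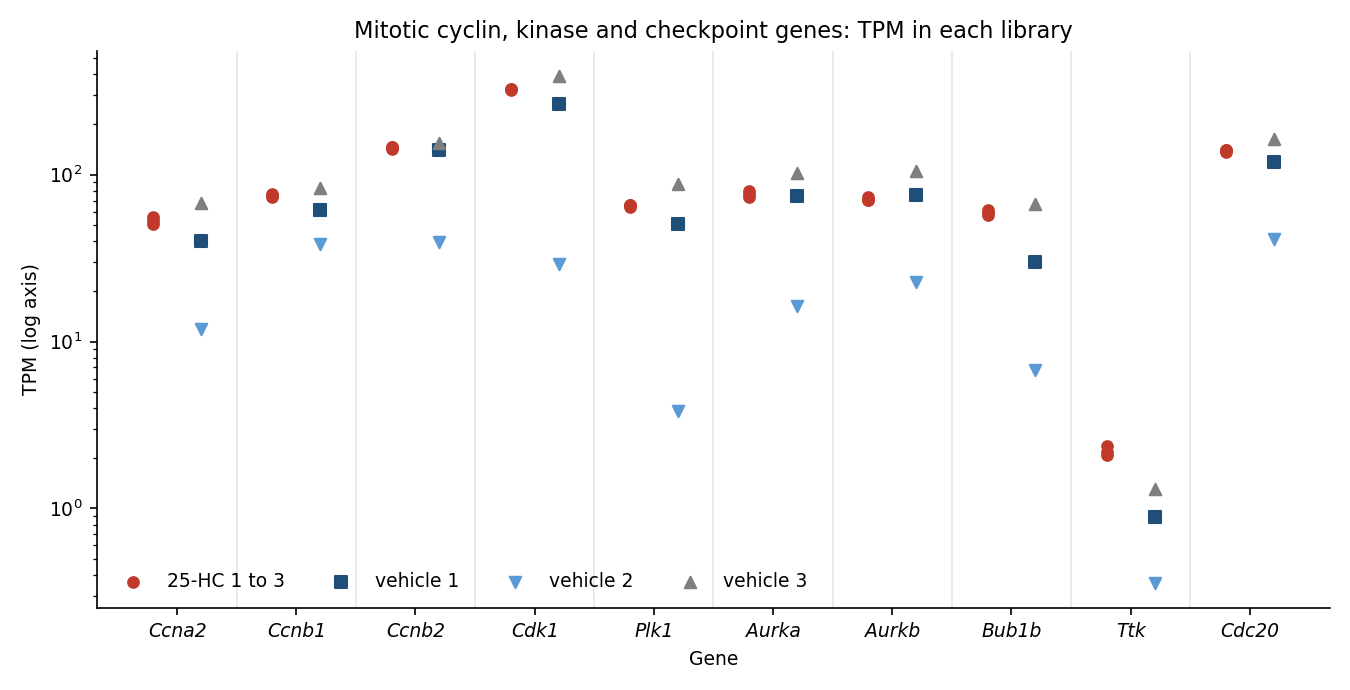
TPM (log axis) of each of the 10 mitotic genes in each library; circles are the 3 libraries with 25-HC, and squares, downward and upward triangles are vehicle 1, 2 and 3. The libraries with 25-HC lie below vehicle 3 for every gene but Ttk, and vehicle 2 is the lowest library for every gene.

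Among the cyclins, Ccna2, which acts with CDK kinases in S phase and on entry into mitosis, stood at 53.2, 55.6 and 50.5 TPM with 25-HC and at 40.2, 11.8 and 67.3 TPM in vehicle 1, 2 and 3. The libraries with 25-HC were above vehicle 1 and 2 and below vehicle 3, and the log2 difference of 0.71 (SE 0.61) did not pass (adjusted p = 0.452 by limma). Ccnb1, the main mitotic cyclin, was at 74.8, 73.3 and 76.6 TPM with 25-HC and at 61.2, 38.2 and 82.8 TPM with vehicle. It varied least of the 10 among vehicle libraries, with vehicle 3 at 2.17 times vehicle 2, and its log2 difference was 0.37 (SE 0.32, adjusted p = 0.457 by limma). Ccnb2, the other B-type cyclin of dividing cells, was at 143, 147 and 147 TPM with 25-HC and at 140, 39.5 and 156 TPM with vehicle. Vehicle 1 and 3 lay on either side of the libraries with 25-HC at close range, and vehicle 2 was far off (log2 difference 0.61, SE 0.53, adjusted p = 0.458 by limma). Pseudogenes of both B-type cyclins are listed apart, at no more than 0.05 TPM for Ccnb1-ps and 0.13 TPM for Ccnb2-ps, and how reads were divided between near-identical copies is uncertain.

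Cdk1, the kinase that these cyclins activate, had the highest level of the 10, with 325, 321 and 328 TPM under 25-HC. In vehicle 1, 2 and 3 it was at 267, 29.0 and 390 TPM, a 13.4-fold range. The libraries with 25-HC again fell inside that range, and the log2 difference of 1.15 had an SE of 0.94 (adjusted p = 0.438 by limma).

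Plk1, the Polo kinase that helps to activate CDK1 and mature the spindle poles, was at 66.0, 63.7 and 66.2 TPM with 25-HC and at 50.4, 3.84 and 87.7 TPM with vehicle. Its 22.8-fold range among vehicle libraries was the widest of the 10, and the log2 difference of 1.24 (SE 1.05) did not pass (adjusted p = 0.448 by limma). Aurka, the Aurora kinase of the spindle poles, was at 73.1, 79.4 and 76.5 TPM with 25-HC and at 74.9, 16.5 and 102 TPM with vehicle. Vehicle 1 lay among the libraries with 25-HC and vehicle 3 above them all (log2 difference 0.59, SE 0.66, adjusted p = 0.546 by limma). Aurkb, the Aurora kinase of the chromosomal passenger complex, was at 73.0, 70.2 and 70.1 TPM with 25-HC and at 75.6, 22.8 and 105 TPM with vehicle. It was the gene with the smallest log2 difference of the 10, at 0.32 (SE 0.56, adjusted p = 0.688 by limma), and the libraries with 25-HC were below both vehicle 1 and vehicle 3.

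Bub1b, which encodes the checkpoint kinase-like protein BUBR1, was at 61.3, 58.6 and 57.5 TPM with 25-HC and at 30, 6.78 and 67.0 TPM with vehicle. The libraries with 25-HC were 1.97-fold above vehicle 1, 8.73-fold above vehicle 2 and at 0.883 of vehicle 3. Its log2 difference was 1.24 (SE 0.76, adjusted p = 0.394 by limma). Ttk, the kinase that starts checkpoint signalling at unattached kinetochores, was at 2.18, 2.38 and 2.10 TPM with 25-HC and at 0.89, 0.36 and 1.31 TPM with vehicle. It was the only gene of the 10 whose groups did not overlap, with a 2.60-fold difference of means, 1.69-fold above vehicle 3 alone. Its log2 difference of 0.83 (SE 0.29) had an unadjusted p = 0.0256 and an adjusted p = 0.389 by limma, higher in 3 of 3 libraries with 25-HC. The mean in vehicle, 0.853 ± 0.476 TPM (SD, n = 3), is under the 1 TPM that a gene needed on average to be tested, and the mean with 25-HC, 2.22 ± 0.144 TPM (SD, n = 3), carried it past that filter. Cdc20, the activator of the anaphase-promoting complex that the checkpoint holds back, was at 140, 136 and 140 TPM with 25-HC and at 119, 41.3 and 164 TPM with vehicle. Here too every library with 25-HC was above vehicle 1 and 2 and below vehicle 3 (log2 difference 0.57, SE 0.51, adjusted p = 0.462 by limma).

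No gene of the 10 passed the limma test, with adjusted p-values of 0.389 to 0.688, and 1 (Ttk) had an unadjusted p under 0.05. Of all 12092 tested genes, 1 (0.00827%) passed and 11.2% had an unadjusted p under 0.05. In exact two-sided permutation tests over the 6 libraries the 10 genes gave p = 0.1 for Ttk, the smallest that 3 against 3 can give, and p = 0.4 to 1 for the rest. The median log2 difference of the 10 genes was 0.66, beside 0.52 for all tested genes, on log2(TPM + 1). This gap depended on the pseudocount, the value added to TPM before the logarithm. With 0.1 the medians were 0.68 and 0.64, and with 5 they were 0.56 and 0.30. One gene of the 10 lay above every vehicle library, as did 22.6% of all tested genes, and none lay below every one, as did 8.1%.

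Against vehicle 3, the vehicle library nearest to those with 25-HC in its number of detected genes, 9 of the 10 genes were lower in every library with 25-HC and only Ttk was higher in every one. Among all tested genes 45.7% were lower in this way and 28.5% higher. The mean with 25-HC was between 0.679 of vehicle 3 for Aurkb and 0.937 for Ccnb2 among those 9. Aurkb was followed by Plk1 at 0.744, Aurka at 0.747 and Ccna2 at 0.789 of vehicle 3. A limma fit of the 3 libraries with 25-HC against vehicle 3 alone, passed 5 of the 10 as lower (Cdk1, Plk1, Aurka, Aurkb and Cdc20), and 6.33% of all tested genes. That fit takes its spread from the libraries with 25-HC alone and assumes that vehicle 3 varies as little, whereas the vehicle libraries differed far more, so these calls do not support a difference between the conditions.

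Against vehicle 1, every library with 25-HC was higher for 8 of the 10 genes, beside 61.5% of all tested genes, and the exceptions were Aurka and Aurkb. Against vehicle 2 this held for 10 of 10, beside 75.8%, with the mean under 25-HC from 1.96-fold higher for Ccnb1 to 17.0-fold higher for Plk1. With vehicle 3 left out, 8 of the 10 genes lay above both other vehicle libraries, beside 59.5% of all tested genes, and no gene of the 10 passed limma. With vehicle 2 left out, the median log2 difference of the 10 genes was 0.00048, Ttk lay above both remaining vehicle libraries, as 23.6% of tested genes did, and Aurkb below both, as 16.9% did.

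**Figure D3:**
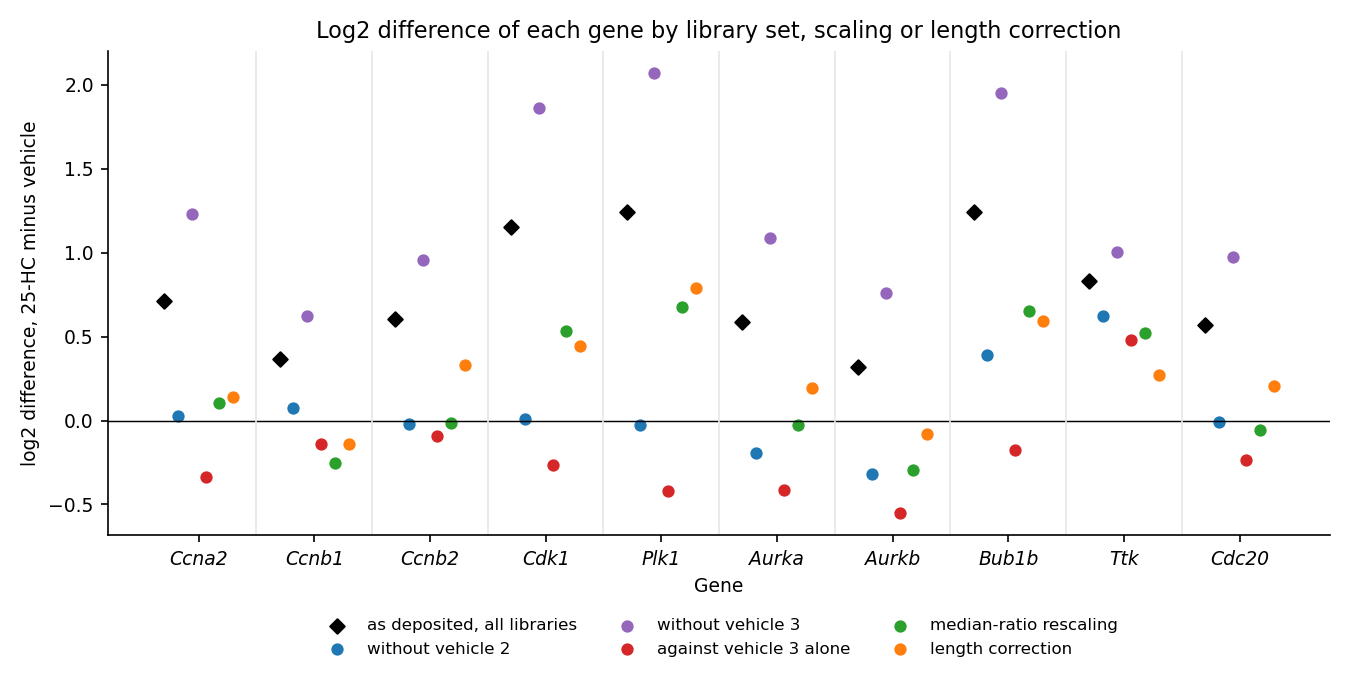
Log2 difference (25-HC minus vehicle) of each of the 10 genes on the deposited values (diamonds) and with vehicle 2 or vehicle 3 left out, against vehicle 3 alone, after median-ratio rescaling, and after correction for transcript length. Values lie above 0 for all genes on the deposited values and below 0 for 9 of 10 against vehicle 3 alone.

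The libraries also differed along transcript length. Relative to vehicle 2, the median log2 difference of all genes was 0.051 in the shortest sixth of transcripts and 1.63 in the longest. Relative to vehicle 1 these medians were -0.18 and 0.78, and relative to vehicle 3 they were -0.051 and -0.039. The 10 genes have longest annotated transcripts of 1531 (Ccnb2) to 4375 bases (Cdk1), in sixths 2 to 5 of length. Relative to vehicle 2, Plk1 stood 2.79 above the median of genes of like length on the log2 scale, Cdk1 1.80, Bub1b 1.41 and Aurka 1.16 above it. Ccnb1 deviated by -0.37 from that median, so the 10 genes were not shifted evenly. The medians cover genes of all levels and were not matched to the 10 genes in level. Because log2(TPM + 1) understates changes of low genes, the deviations are not a measure of length alone. Ttk deviated by -0.077, but it was at 0.36 TPM in vehicle 2, where the log2(TPM + 1) scale understates a change. In TPM its mean with 25-HC was 6.17-fold that of vehicle 2, beside 4.64-fold for Aurka. Relative to vehicle 1 the deviations from genes of like length ran from -0.34 for Cdk1 to 0.48 for Ttk. Relative to vehicle 3 they ran from -0.48 for Aurkb to 0.57 for Ttk. The part of transcript length in these differences was not tested on its own. The length correction fits a length trend in each library and brings all libraries to a common mean. It therefore removes differences of scale as well as of length, and brings the median of all genes near 0 by design. After it the median log2 difference of the 10 genes was 0.24 and that of all genes 0.0026. Median-ratio rescaling, which uses no length, gave 0.045 for the 10 genes.

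**Figure D4:**
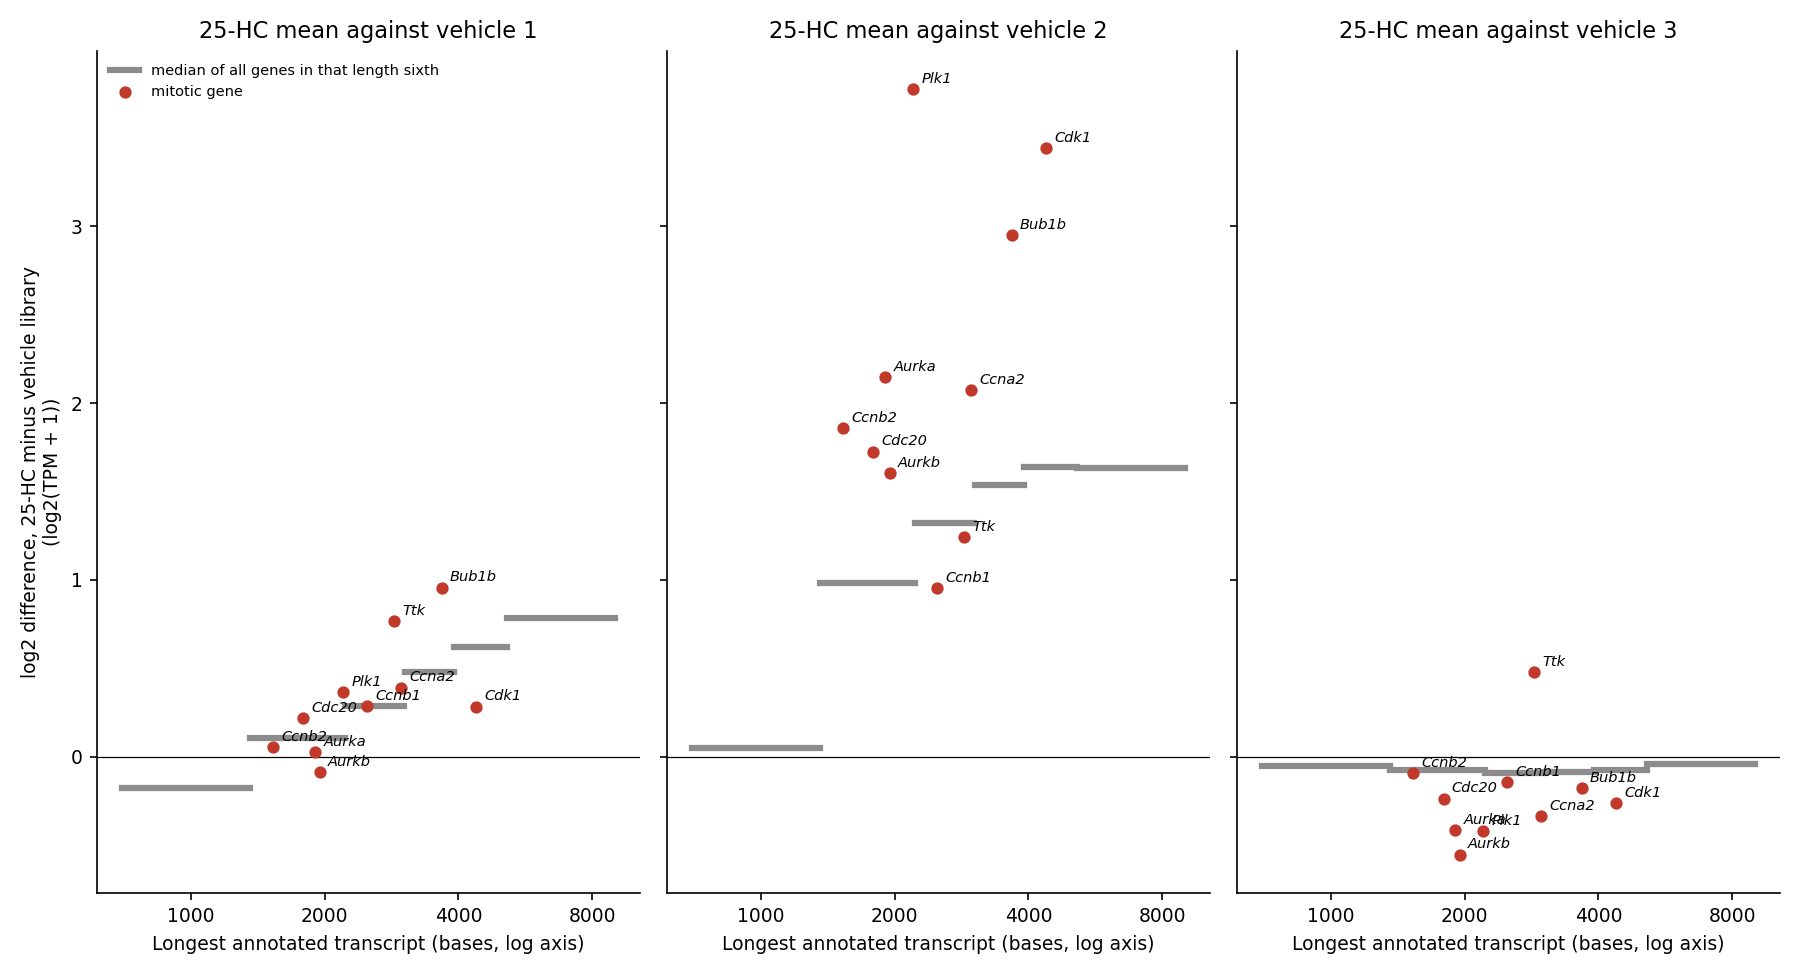
Log2 difference between the mean of the 3 libraries with 25-HC and each vehicle library, on log2(TPM + 1), against the length in bases (log axis) of the longest annotated transcript; points are the 10 genes and grey bars the median of all genes in each sixth of length, with the outermost bars shortened to the plotted range. Against vehicle 2, Plk1 and Cdk1 lie far above the median of genes of like length, which was not matched for level. Against vehicle 3 all of the 10 genes but Ttk lie below 0.

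Scaling moved the genes as well. Median-ratio rescaling divides vehicle 2 by 0.423 and the other libraries by 0.967 to 1.32, which brings the median log2 difference of all genes to 0.013 and that of the 10 genes to 0.045. On that scale Ccnb1 was at 58.9, 58.9 and 60.6 with 25-HC and at 63.3, 90.3 and 62.9 in vehicle 1, 2 and 3, lower in every library with 25-HC, as 18.1% of tested genes were. Ttk stayed above every vehicle library, as 18.4% of tested genes did, with 1.72, 1.91 and 1.66 against 0.92, 0.85 and 1.00. The other 8 genes overlapped. Ttk no longer separated after quantile normalization or after the length correction.

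The order of the 10 genes by level was nearly fixed under 25-HC. Cdk1 averaged 325 ± 3.39 TPM, Ccnb2 146 ± 2.58 TPM, Cdc20 139 ± 2.54 TPM, Aurka 76.3 ± 3.11 TPM, and Ccnb1 74.9 ± 1.65 TPM (SD, n = 3 each). Aurkb at 71.1 ± 1.68 TPM, Plk1 at 65.3 ± 1.41 TPM, Bub1b at 59.2 ± 1.95 TPM, Ccna2 at 53.1 ± 2.57 TPM and Ttk at 2.22 ± 0.144 TPM followed (SD, n = 3 each). The values of neighbours in this order did not overlap, except for Aurka and Ccnb1. In vehicle 3 the order began in the same way with Cdk1, followed by Cdc20 and then Ccnb2. In vehicle 2 Cdc20 led, Cdk1 was in rank 4, and Plk1 was in rank 9, against rank 6 or 7 in the other libraries. Vehicle 2 also differed along transcript length, where Cdk1 is in sixth 5 and Cdc20 and Plk1 are in sixth 2. The part of length in these ranks was not tested.

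The 10 genes varied alike over the 6 libraries, and many others varied with them. Against the mean profile of the 10 genes, each centred and scaled, 9 of them had a Pearson r of at least 0.95 and Ttk one of 0.834, over 6 libraries of which vehicle 2 stands farthest apart. Each gene is itself part of that profile, which raises its r. Against the mean of the other 9 genes the count at 0.95 was again 9, and Ttk had an r of 0.798. Of the other 12082 tested genes 4526 (37.5%) also reached 0.95. The 5 closest were Ppp2ca, a catalytic subunit of protein phosphatase 2A, Tpm4, a tropomyosin, Zfand1, Bsdc1 and Rmdn3, with r of 0.9998 to 0.9999. Ppp2ca was at 36.7, 37.4 and 37.2 TPM with 25-HC and at 30.4, 11.7 and 41.2 TPM with vehicle, the same arrangement of libraries as most of the mitotic genes.

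Other mitotic genes were listed by role, 92 in 6 lists that leave out transcription regulators and S phase genes, of which 82 passed the filter. None passed limma, and 10 had an unadjusted p under 0.05, beside 11.2% of all tested genes. Of the 82, 21 lay above every vehicle library and 2 below, beside 22.6% and 8.1% of all tested genes. Their median log2 difference was 0.63, beside 0.52, on log2(TPM + 1), and the median of all genes moved with the pseudocount. Like Ttk, 9 of those 21 had a vehicle mean under 1 TPM and were tested only through their level with 25-HC. Against vehicle 3 alone 49 of the 82 were lower in every library with 25-HC and 23 higher, beside 45.7% and 28.5% of all tested genes, with a median log2 difference of -0.14, beside -0.071. These shares of all tested genes apply to the single lists as well. The partners of Aurkb in the chromosomal passenger complex were all lower than vehicle 3 and overlapped with the vehicle group. Birc5, which encodes survivin, was at 150, 160 and 149 TPM with 25-HC and at 184, 85.7 and 166 TPM with vehicle. Incenp, the scaffold of the complex, averaged 64.3 TPM with 25-HC and 57.9 TPM with vehicle, and Cdca8, which encodes borealin, averaged 85.5 and 81.5 TPM.

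Among 20 tested mitotic regulators, 16 were below vehicle 3 in every library with 25-HC, beside 45.7% of all tested genes. Of the 20, 1 lay above every vehicle library, beside 22.6%, and none passed limma. Nek2, a centrosome kinase, had the highest log2 difference of that list at 1.59, with a mean of 39.3 TPM with 25-HC and 23.5 TPM with vehicle. Ube2s, an E2 enzyme of the anaphase-promoting complex, had the lowest at -0.30, with 426, 429 and 387 TPM under 25-HC against 532, 595 and 418 TPM with vehicle. Of 17 tested checkpoint and kinetochore genes, 5 lay above every vehicle library and 10 below vehicle 3, beside 22.6% and 45.7% of all tested genes. None passed limma, and 1 of the 5 had a vehicle mean under 1 TPM and was tested only through its level with 25-HC. Bub3, a partner of BUBR1, had the highest log2 difference there, 1.06, and Cenpa, the centromeric histone, the lowest, -0.026. Of the subunits of the anaphase-promoting complex that CDC20 activates, 12 were tested and none passed. Cdc27, with a vehicle mean of 0.98 TPM, and Anapc1 lay above every vehicle library, beside 22.6% of all tested genes. Anapc13 and Anapc11 lay below every one, beside 8.1%. Cdc23 had the highest log2 difference among the subunits, at 1.55, and Anapc13 the lowest, at -0.998, with 87.2 TPM on average under 25-HC and 138, 377 and 103 TPM in vehicle 1, 2 and 3.

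For spindle and cytokinesis genes, 19 tested, 6 lay above every vehicle library and 10 were below vehicle 3, beside 22.6% and 45.7% of all tested genes. None passed limma. Of the 6, 3 had a vehicle mean under 1 TPM and were tested only through their level with 25-HC. Anln, an actin-binding protein of the cleavage furrow, had the highest log2 difference at 1.67, with 4.89, 4.58 and 5.98 TPM under 25-HC against 0.77, 0.09 and 2.66 TPM with vehicle. Kif22, a chromosome-bound kinesin, had the lowest at 0.0075. Of 11 tested chromosome structure genes, 8 were above vehicle 3 and 2 below, with a median log2 difference of 0.64 against that library, beside 28.5%, 45.7% and -0.071 for all tested genes. Above every vehicle library were 7, beside 22.6% of all tested genes, and none passed limma. Of the 11 genes 7 had a mean under 10 TPM, and 4 of those above every vehicle library were tested only through their level with 25-HC. The median log2 difference of this list over all vehicle libraries was 0.90. It was 0.56 after median-ratio rescaling and 0.15 after length correction, which removes differences of scale as well. Rad21, a cohesin subunit, had the highest log2 difference at 2.01, at 38.1, 36.3 and 37.9 TPM with 25-HC and 11.1, 0.96 and 35.6 TPM with vehicle. Stag1, another cohesin subunit, had the lowest at -0.0053.

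Of 21 tested regulators of cell cycle transcription none passed. In this list 5 lay above every vehicle library and 1 below, beside 22.6% and 8.1% of all tested genes. Below vehicle 3 were 13, beside 45.7%. Of the 5, 1 had a vehicle mean under 1 TPM and was tested only through its level with 25-HC. Tfdp1, the dimer partner of E2F factors, had the highest log2 difference at 1.51. Lin37, a subunit of the MuvB complex, had the lowest at -0.61, with 17.1, 16.3 and 18.2 TPM under 25-HC and 28.4, 26.1 and 25.8 TPM with vehicle, the only gene of that list below every vehicle library. Of 23 tested S phase genes none passed, and 19 were below vehicle 3 in every library with 25-HC, beside 45.7% of all tested genes. The median log2 difference against that library was -0.26 for S phase genes and -0.25 for the 10 mitotic genes, beside -0.071 for all tested genes. Mcm4, a subunit of the replicative helicase, had the highest log2 difference over all vehicle libraries at 1.48, and Orc6, of the origin recognition complex, the lowest at -0.26.

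**Figure D5:**
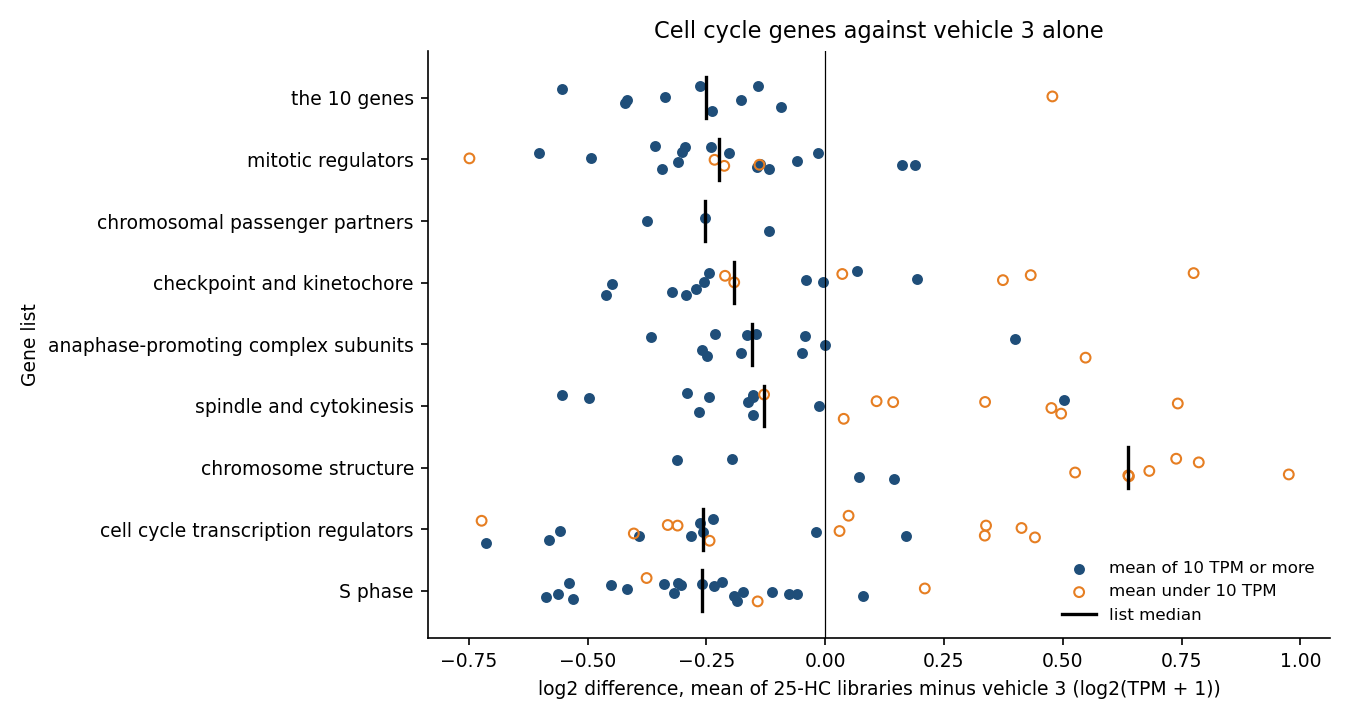
Log2 difference between the mean of the 3 libraries with 25-HC and vehicle 3, on log2(TPM + 1), for each tested gene of the cell cycle lists; filled points have a mean of 10 TPM or more over the 6 libraries, open points a lower one, and black bars are list medians. The medians lie below 0 except for chromosome structure genes, at 0.64, and the open point of the 10 genes, to the right of 0, is Ttk.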

How the data were processed

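RNA of RAW264.7 cells was sequenced in 6 libraries, 3 with 25-HC and 3 with vehicle, and libraries were made with a TruSeq RNA kit, per the labels' protocols. HISAT2, StringTie, RSEM and the build GRCm39 are named in the submitters' processing notes, with no versions. For annotation release and strandedness, the sources used here give nothing. The authors deposited TPM per gene and library, and 11 empty columns were ignored. TPM hold no counts, so no counting interval is given.

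A gene entered the test if its mean over the libraries reached 1 TPM. On the scale log2(TPM + 1), limma 3.58.1 (R 4.3.3, variance trend, two-sided, no block) was fitted, adjusted by Benjamini-Hochberg over 12092 genes at a threshold of 0.05; the scale understates changes of low genes. Of identifiers that share a symbol, the one with the highest mean kept it. The 10 genes, the lists and the choices were made with earlier results of these data known. All 10 were named; from each other list those with the highest and lowest log2 difference, called genes (there were none), the passenger partners, the 5 genes most like the 10, and genes chosen after their values were seen (Cdc27, Anapc1, Anapc11, Smc4, Mki67, Bub1). Lengths came from GENCODE M21 (92.1% of tested genes), on another build, so its coordinates were not used. The alternatives are given in the closing section. Exact tests ran in scipy 1.17.1 and figures in matplotlib 3.10.9, under Python 3.11.15 with numpy 2.4.6 and pandas 2.3.3.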

Additional observations from a re-analysis of the deposited data

How the results depend on the processing

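The number of genes passing limma over the whole table, 1, was 0 with a pseudocount of 5, no filter, a mean of at least 5 TPM or a replicate block, 2 after median-ratio rescaling, 5 after quantile normalization, 19 after length correction and 1312 against vehicle 3 alone. It ran from 0 to 722 with a library left out (722 without vehicle 3, 13 without vehicle 2). Of the 10 mitotic genes 0 passed in each setting except against vehicle 3 alone, with 5. The number above every vehicle library, 1, was 0 after length correction and quantile normalization, 0 with a mean of at least 5 TPM, where Ttk is not tested, and 1 to 8 with a library left out. The number below, 0, was 1 after median-ratio rescaling, 9 against vehicle 3 alone and 0 to 1 with a library left out.

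Of 149 recomputed log2 differences of single genes 22 turned negative. Against vehicle 3 alone these were -0.34 (Ccna2), -0.14 (Ccnb1), -0.094 (Ccnb2), -0.26 (Cdk1), -0.42 (Plk1), -0.42 (Aurka), -0.55 (Aurkb), -0.18 (Bub1b) and -0.24 (Cdc20). After median-ratio rescaling they were -0.25 (Ccnb1), -0.016 (Ccnb2), -0.026 (Aurka), -0.29 (Aurkb) and -0.054 (Cdc20). After length correction they were -0.14 (Ccnb1) and -0.080 (Aurkb), and after quantile normalization -0.035 (Aurkb). With a library left out the range was -0.019 to 0.96 (Ccnb2), -0.027 to 2.07 (Plk1), -0.20 to 1.09 (Aurka), -0.32 to 0.76 (Aurkb) and -0.0093 to 0.97 (Cdc20), lowest without vehicle 2 and highest without vehicle 3. The cause was not tested. Libraries with the same replicate number did not deviate together from their group means (r of -0.013, 0.056 and 0.030 across genes). No pairing by number was seen, but 3 libraries per group are too few to exclude one. Under the replicate block 1163 genes had an unadjusted p under 0.05 by limma. Depth is unknown from TPM, so what depth limits could not be given.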

Other observations

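Ttk was the only one of the 10 mitotic genes with a mean under 10 TPM over the 6 libraries, and the other mitotic genes were divided by the same level, which was chosen after their values were seen. Of 26 other mitotic genes under 10 TPM, 16 (61.5%) were above vehicle 3 in every library with 25-HC and 7 (26.9%) below. Of these 16, 9 had a vehicle mean under 1 TPM and were tested only through their level with 25-HC, so their mean had to be higher with 25-HC. Among all tested genes under 10 TPM, 575 had such a vehicle mean. Of these, 310 were above vehicle 3 in every library with 25-HC, so this was not forced. The filter still favours higher values with 25-HC, and the count of 16 supports no difference by level. Of 56 other mitotic genes at 10 TPM or more, 7 (12.5%) were above and 42 (75.0%) below. Over all tested genes the shares above were 29.5% under 10 TPM and 27.6% at or over it, and the shares below were 36.5% and 53.6%. Named after their values were seen, 3 genes on the low side are given here. Smc4, a condensin subunit, was at 2.95, 4.12 and 3.17 TPM with 25-HC against 0.85, 0.21 and 1.23 TPM with vehicle. Mki67, the gene of the proliferation marker Ki-67, was at 3.47, 2.99 and 3.12 TPM with 25-HC against 0.77, 0.53 and 1.51 TPM with vehicle. Bub1, the checkpoint kinase related to BUBR1, was at 3.84, 3.85 and 4.22 TPM with 25-HC against 2.30, 0.46 and 2.68 TPM with vehicle. None of the 3 passed limma (adjusted p = 0.389 each), and Smc4 and Mki67, with vehicle means of 0.763 and 0.937 TPM, passed the filter only through the libraries with 25-HC.

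The median log2 difference of all genes also moved with the GC content of the transcript. Relative to vehicle 3 it was 0.020 in the sixth with the lowest GC content and -0.14 in the highest. The same medians lay farther apart relative to vehicle 1, at 0.54 and 0.10, and relative to vehicle 2, at 1.48 and 0.81. Ttk, with 43.0% GC, was the only mitotic gene of the 10 in the lowest sixth, and Plk1 and Cdc20, with 56.0% and 55.6%, were in sixth 5 of 6. The part of GC content in these differences was not tested.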
